A study of Mus musculus with 21 samples.

Results

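GABA-A receptor subunit mRNAs were followed in brain RNA of SAMP8 mice given the Kv1.3-blocking peptide HsTX1[R14A] or phosphate-buffered saline (PBS). The study describes the tissue as whole brain, but Gabra6, Cbln3 and Fat2, markers of cerebellar granule cells, were low in most libraries, as given below. The set holds 7 genes of the 16318 in the deposited count table, chosen by symbol: the alpha subunit genes Gabra2, Gabra3, Gabra4 and Gabra5, the beta subunit genes Gabrb1 and Gabrb2, and the delta subunit gene Gabrd. All 7 were found once and all passed the filter on low counts. SAMP8 is an inbred, senescence-prone mouse line that carries no transgene, and a non-senescent control strain was not analysed here. The mice were 6 months old when the brains were taken. The 12 PBS mice (6 female, 6 male) received vehicle by subcutaneous injection for 8 weeks, and the 9 HsTX1[R14A] mice (3 female, 6 male) received the peptide at 1 mg/kg in the same way. Each mouse gave 1 library, with 14917174 to 47613792 counts per library.

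GABA-A receptors are chloride channels opened by the inhibitory transmitter GABA, and each is a ring of subunits drawn from several families. Most receptors in the brain combine alpha and beta subunits with a gamma subunit, which places them at synapses, or with the delta subunit, which is found outside synapses and carries tonic inhibition. The alpha subunit sets much of the response to benzodiazepines. The alpha4 subunit often pairs with delta, the alpha5 subunit is prominent in the hippocampus, the alpha2 subunit is enriched at the axon initial segment and the alpha3 subunit is found in monoamine neurons and the thalamic reticular nucleus.

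The 3 genes on which the comparison turns include a head-to-head pair. Gabra4 (ENSMUSG00000029211; GRCm38 chr5:71569749-71658308, minus strand) and Gabrb1 (ENSMUSG00000029212; chr5:71658113-72149037, plus strand) are transcribed away from each other, and their annotated 5′ ends lie 195 bases apart and overlap. Gabrb2 (ENSMUSG00000007653) is at chr11:42419757-42629028 on the plus strand. Promoter windows from RefSeq (GRCm38.p6) were found for 6 of the 7 members, all but Gabrd. The stretch upstream of Gabra4 that holds no annotated exon (chr5:71658364-71658558, minus strand) lies inside the Gabrb1 gene and is shown because the 2 neighbours share this region, and the 250 bases upstream of a Gabrb2 start (chr11:42420190-42420439, plus strand) are shown because that window alone among those of the called members held searched motifs. Each is written 5′ to 3′, and capitals mark an EGR site (GCGNGGGCG, here on the opposite strand) and a TATA box (TATAAA).
Gabra4 upstream: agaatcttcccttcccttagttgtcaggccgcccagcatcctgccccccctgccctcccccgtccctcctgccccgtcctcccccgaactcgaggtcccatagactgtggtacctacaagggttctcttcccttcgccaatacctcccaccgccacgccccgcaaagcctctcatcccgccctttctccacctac
Gabrb2 upstream: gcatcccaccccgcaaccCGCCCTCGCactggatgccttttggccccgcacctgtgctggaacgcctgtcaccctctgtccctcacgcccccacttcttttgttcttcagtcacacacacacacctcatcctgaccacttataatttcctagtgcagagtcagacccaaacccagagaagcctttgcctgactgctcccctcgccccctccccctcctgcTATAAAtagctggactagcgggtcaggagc

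On both strands of the 32851 promoter windows in the table, the TATA letters occurred in 12.4% and the EGR letters in 4.7%. The letters of a cyclic AMP response element (TGACGTCA) occurred in 1.55% and those of an E-box (CACGTG) in 6.02%, and neither was found in a window of a member. The 2 windows of Gabra3, an X-linked gene (chrX:72432681-72656848, minus strand), overlap and held the same single stretch of TATA letters, on the opposite strand. The Gabra2 window (chr5:71095850-71096099, minus strand) held 18 CpG dinucleotides, more than 78.3% of all windows, and the Gabra3 windows held 0. These matches are descriptions of the letters and not binding sites.

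The first comparison asked how 8 weeks of HsTX1[R14A] bore on the receptor's subunits. Gabrb1 and Gabrb2 mRNAs were higher and Gabra4 mRNA was lower in HsTX1[R14A] brains, with log2 fold changes of 0.46, 0.43 and -0.42, and the other 4 members did not pass the test. Over all 16303 genes tested with edgeR's quasi-likelihood test, with sex in the model and Benjamini-Hochberg adjustment, 31.6% were called at an adjusted p of at most 0.05. The share called higher was 15.5% and the share called lower was 16.1%. Among the 7 members, 2 were called higher and 1 lower, a count near that background.

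Gabrb2 encodes the beta2 subunit, which is widespread at inhibitory synapses. Its level in CPM (counts scaled to library size, here by TMM) had a median of 78.5 in PBS mice (range 53.7 to 101) and of 104 in HsTX1[R14A] mice (range 86.3 to 109). Of the 9 treated mice, 8 lay above the highest PBS mouse, and the remaining one, male 93, lay within the PBS range. The log2 fold change was 0.43 with a standard error of 0.10 (edgeR, adjusted p = 0.0161). The mean was 77 ± 15.6 CPM in PBS (SD, n = 12) and 103 ± 6.7 CPM in HsTX1[R14A] (SD, n = 9).

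Gabrb1 encodes the beta1 subunit, which is the least widespread of the beta subunits. Its level had a median of 159 CPM in PBS mice (range 84.4 to 216) and of 198 CPM in treated mice (range 156 to 282). The groups overlapped, with 4 treated mice above every PBS mouse and 6 PBS mice below every treated mouse. The log2 fold change was 0.46 with a standard error of 0.13 (edgeR, adjusted p = 0.0208).

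Gabra4, its neighbour on the opposite strand, encodes the alpha4 subunit of extrasynaptic receptors and moved the other way. Its level had a median of 171 CPM in PBS mice (range 145 to 239) and of 127 CPM in treated mice (range 103 to 169). None of the 9 treated mice reached the PBS median, 6 of them lay below every PBS mouse, and 7 PBS mice lay above every treated mouse. Gabra4 fell by 0.42 on the log2 scale with a standard error of 0.10 (edgeR, adjusted p = 0.0153). The paper's methods name a directional library kit and the labels a different kit, and the sources used here do not state whether counting used strand. Reads from the overlapping 5′ ends of Gabra4 and Gabrb1 could therefore be assigned to either gene.

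**Figure D1:**
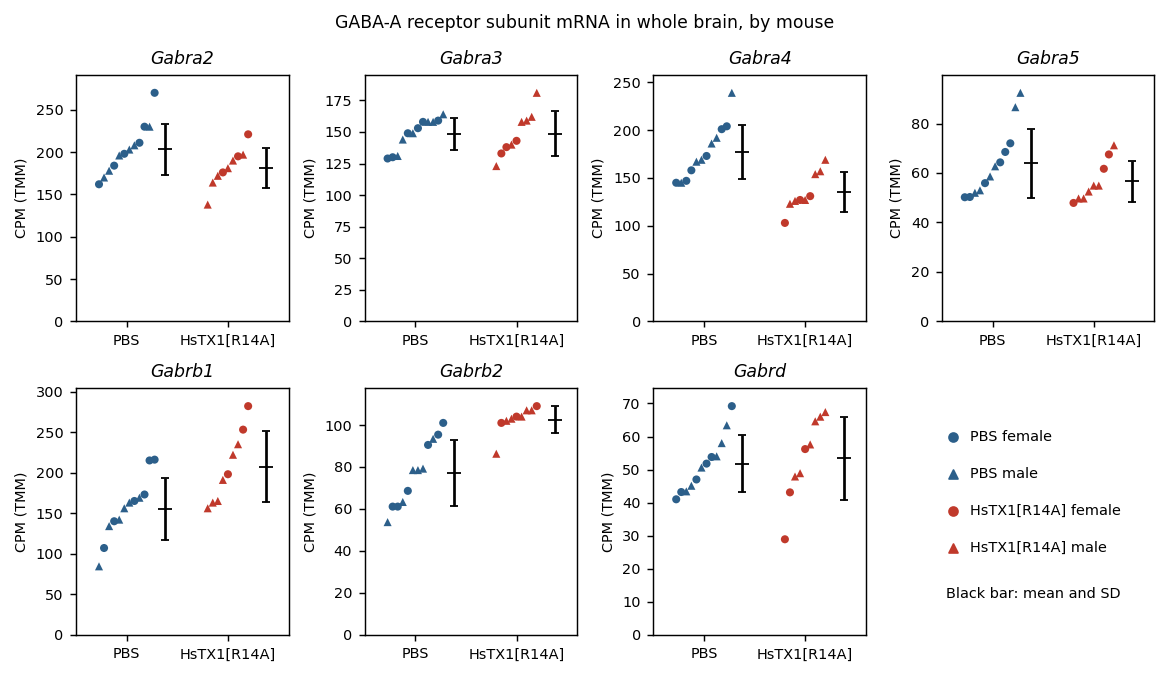
TMM-scaled CPM of each member (vertical axes, linear, from 0) by group, 1 point per mouse, circles for females and triangles for males, with the mean and SD in black. For Gabrb2, 8 of the 9 HsTX1[R14A] mice sit above the highest of the 12 PBS mice, and for Gabra4 no treated mouse reaches the PBS median.

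The ratio of Gabrb1 to Gabra4 within a library joins both changes and does not depend on the scaling of the libraries. The ratio does vary with the length slope of the library, which is defined below. Among PBS mice Gabrb1 rose with that slope and Gabra4 fell with it (r = 0.951 and -0.777). It was chosen after the values of both genes were seen and is given without a test. The median log2 ratio was -0.15 in PBS mice (range -1.5 to 0.55) and 0.64 in treated mice (range -0.04 to 1.45). All 9 treated mice lay above the PBS median, and 6 lay above every PBS mouse. The lowest PBS mice were male 90 and female 103, at -1.5 and -0.94, and the highest treated mouse was female 71, at 1.45. The length slopes of these libraries were -0.3375, -0.384 and 0.1838.

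Gabra2, Gabra3, Gabra5 and Gabrd did not pass the test. Gabra2, in the same chromosome 5 cluster as Gabra4 and Gabrb1, ran from 162 to 270 CPM in PBS mice (median 200) and from 138 to 221 CPM in treated mice (median 181), with a log2 fold change of -0.14 (SE 0.09, edgeR adjusted p = 0.199). Gabra5 (chr7:57407672-57510059, minus strand) ran from 50.2 to 92.4 CPM in PBS mice (median 60.6) and from 47.9 to 71.2 CPM in treated mice (median 54.9), with a log2 fold change of -0.18 (SE 0.12, edgeR adjusted p = 0.22). For both alpha subunits most treated mice lay below the PBS median, and the groups overlapped. For Gabra2, 1 treated mouse lay below every PBS mouse and 3 PBS mice lay above every treated mouse, and for Gabra5 these counts were 3 and 3. Gabra5 overlaps the antisense gene Gm9962 on the opposite strand, so its counts share the limit given for Gabra4.

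Gabra3 had nearly equal levels in both groups, from 129 to 164 CPM in PBS mice (median 151) and from 123 to 181 CPM in treated mice (median 143). Its log2 fold change was -0.02 (SE 0.07, edgeR adjusted p = 0.858). Gabrd (chr4:155384980-155398112, minus strand), whose product carries tonic currents together with alpha4, ran from 41 to 69.2 CPM in PBS mice (median 51.2) and from 28.9 to 67.4 CPM in treated mice (median 56.2). Its log2 fold change was -0.001 (SE 0.12, edgeR adjusted p = 0.994). Gabra4 and Gabrd, which often share a receptor, were thus measured with different outcomes, and the difference between the 2 genes was not tested.

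The libraries differed in how their counts depended on transcript length, and the called members moved with that property. For each library a length slope was computed, the slope of centered log2 CPM on the log2 length of the longest transcript, so that a library with a higher slope holds relatively more counts of long transcripts. The slope ran from -0.384 to 0.147 in PBS libraries (median -0.023) and from -0.141 to 0.234 in HsTX1[R14A] libraries (median 0.15). With this slope as a covariate none of the 7 members was called in edgeR. The log2 fold change was then -0.20 for Gabra4 (adjusted p = 0.374), 0.10 for Gabrb1 (adjusted p = 0.647) and 0.18 for Gabrb2 (adjusted p = 0.394). With that covariate 0 of the 16303 genes were called, and 1865 had an unadjusted p under 0.05. The slope was computed from these same counts and differed between the groups, so this fit cannot tell treatment and slope apart. The longest annotated transcripts are 13737 bases for Gabrb1, 4108 for Gabra4 and 3989 for Gabrb2. Removing each library's loess trend on length and GC content instead left all 3 called, at -0.30, 0.47 and 0.50 for Gabra4, Gabrb1 and Gabrb2 (adjusted p = 0.0161, 0.0251 and 0.0127). With 1 surrogate variable they also stayed called, at -0.29, 0.27 and 0.31 (adjusted p = 0.0178, 0.0386 and 0.0238). The loess trend covers only what a gene's length and GC content predict. Gabra4 and Gabrb2, of similar length, followed the slope in opposite directions among PBS mice, as given below. Whether the 3 genes still followed the slope after the trend was removed was not tested.

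**Figure D2:**
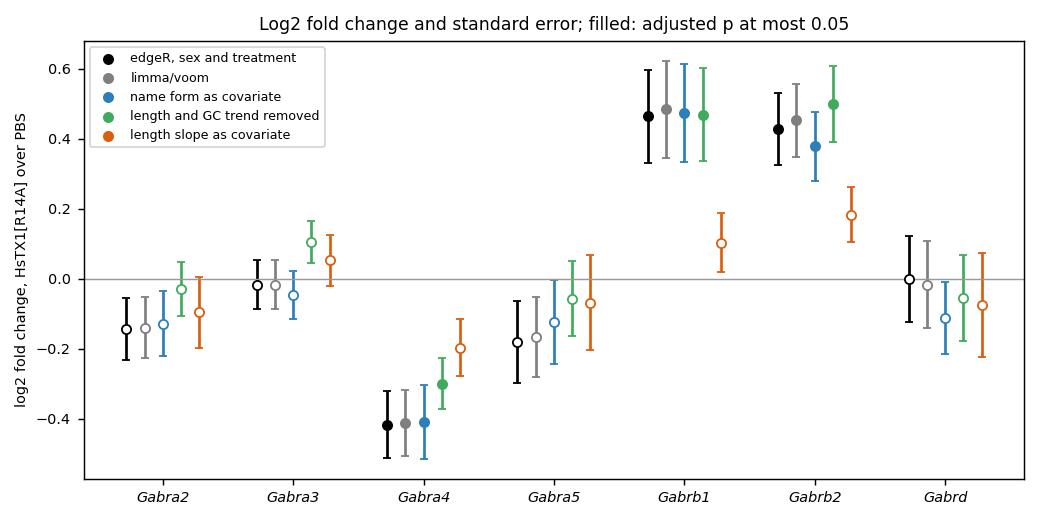
Log2 fold change between HsTX1[R14A] and PBS mice (vertical axis, positive where higher with the peptide) with its standard error for each member under 5 fits, filled where the adjusted p was at most 0.05. Gabra4, Gabrb1 and Gabrb2 are filled in 4 fits and open with the length slope as a covariate, where they shrink to -0.20, 0.10 and 0.18.

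Within the PBS mice alone, where treatment plays no part, the same 3 genes followed the length slope. The slope was computed from the same libraries, and the share of all genes that follow it is not given here. These relations therefore cannot be read as particular to the members. Among 28 relations computed over the 12 PBS mice (all pairs of members, and each member with the slope, on log2 CPM), Gabrb1 against the slope gave Pearson's r = 0.951 and Spearman's rho = 0.979. The permutation p was 1e-05 for both, the smallest that 100000 resamples can give, with an adjusted p of 0.00028 for each. With the 2 mice at the greatest distance from the median left out r was 0.943, and among the 10 PBS mice whose library names have the SAMP8 form it was 0.953. The remaining 2 PBS mice are too few for a value of their own.

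Gabrb2 followed the slope with r = 0.822 and rho = 0.839 (permutation p = 0.00074 and 0.00118, adjusted p = 0.00691 and 0.011), and r was 0.725 without the 2 farthest mice and 0.828 in the SAMP8 form. Gabra4 followed it inversely, with r = -0.777 and rho = -0.699 (permutation p = 0.00288 and 0.0143). The adjusted p was 0.0161 for r but 0.0799 for rho, and r was -0.564 without the 2 farthest mice and -0.773 in the SAMP8 form. Gabra2, Gabra3, Gabra5 and Gabrd gave r of -0.064, -0.285, -0.409 and 0.262 with the slope, none of which passed the adjustment.

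Gabra4 and Gabrb1 also varied inversely across the untreated brains, with r = -0.795 and rho = -0.706 (permutation p = 0.00174 and 0.013). The adjusted p was 0.0122 for r and 0.0799 for rho, and r was -0.805 in the SAMP8 form. Without the 2 mice farthest from the median r was -0.504, so much of the relation rests on 2 mice. Gabrb1 and Gabrb2 rose and fell together, with r = 0.818 and rho = 0.839 (permutation p = 0.00041 and 0.00115, adjusted p = 0.00574 and 0.011), and r was 0.668 without the 2 farthest mice and 0.863 in the SAMP8 form. These points share the library, its depth and its length slope.

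**Figure D3:**
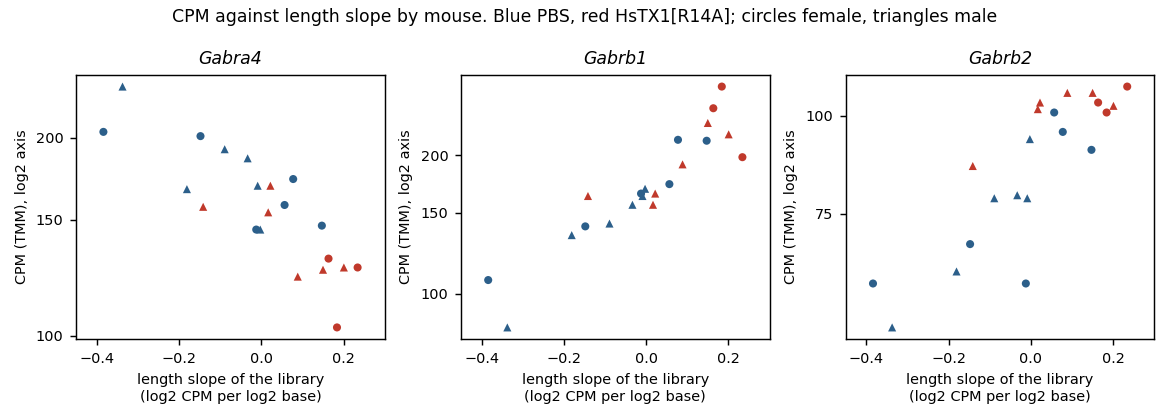
TMM-scaled CPM of Gabra4, Gabrb1 and Gabrb2 (vertical axes, log2) against the length slope of the library (horizontal axis), 1 point per mouse, blue for PBS and red for HsTX1[R14A]. Among the 12 PBS mice Gabrb1 and Gabrb2 increase with the slope (r = 0.951 and 0.822) and Gabra4 decreases (r = -0.777), and the treated mice lie mostly toward higher slopes.

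The library names in the study come in 2 forms, SAMP8 and SAMP, whose meaning is not stated in the sources used here. The SAMP8 form holds 10 PBS and 5 HsTX1[R14A] mice, and the SAMP form holds 2 and 4. Within the SAMP8 form the log2 fold changes were -0.53 for Gabra4, 0.59 for Gabrb1 and 0.48 for Gabrb2 (edgeR, adjusted p = 0.0563, 0.0612 and 0.0575). Within the SAMP form they were -0.09, 0.14 and 0.14 (edgeR, adjusted p = 0.905, 0.881 and 0.856). The directions were the same in both forms, and 0 of all genes were called in either, with 5797 and 532 genes at an unadjusted p under 0.05. With the form as a covariate over all 21 mice the 3 members stayed called.

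Levels between genes were compared per length, as counts divided by the length of the longest transcript and scaled to a fixed total (TPM). In PBS mice the order among members by mean level was Gabra4 (83.3 ± 6.08 TPM, SD, n = 12), Gabra3 (79.9 ± 14.1), Gabra2 (68.1 ± 12.9), Gabra5 (46.6 ± 9.69), Gabrb2 (39.1 ± 13.5), Gabrd (38.1 ± 10.8) and Gabrb1 (23.1 ± 8.92). Neighbours in this order differed by less than the larger of their SDs, except Gabra2 and Gabra5, and Gabrd and Gabrb1, which stood further apart. In HsTX1[R14A] mice Gabra3 stood first at 98.7 ± 6.25 TPM (SD, n = 9) and Gabrb2 had passed Gabra5, at 63.6 ± 9.8 against 52.3 ± 10 TPM. Gabrb1 was lowest in both groups on this scale, on which its counts are divided by a longest transcript of 13737 bases. With the median transcript length instead, Gabrb2 stood above Gabra5 in PBS mice too (54.9 against 26.3 TPM), and in treated mice Gabra5 was lowest (26.3 TPM, against 34.7 TPM for Gabrb1).

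The per-length scale itself moved with treatment. The median gene of 14179 with at least 10 counts in every mouse was higher by 0.32 on the log2 scale in HsTX1[R14A] mice. Against that shift, Gabra4 was lower by a log2 difference of -0.37, while Gabrb1 and Gabrb2 were both higher by 0.39. Without allowing for the shift, the mean TPM of Gabra4 was 83.3 ± 6.08 in PBS and 80.3 ± 8.42 in HsTX1[R14A] mice (SD, n = 12 and 9), a log2 difference of -0.05. With the median transcript length the means were 86.3 ± 6.83 and 74.3 ± 8.71 TPM, a log2 difference of -0.22, and the median gene was higher by 0.16. Against that shift Gabra4 stood at -0.38 and Gabrb1 and Gabrb2 both at 0.40.

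The measured subunits outside the set were all short of the threshold (0 of 9 called in edgeR, 1 with an unadjusted p under 0.05). Gabrg3 was the one under 0.05, at a log2 fold change of 0.25 (adjusted p = 0.0951). Gabrg1, a further gene of the chromosome 5 cluster, had a log2 fold change of -0.45 (SE 0.22, adjusted p = 0.118). The low-abundance subunits Gabre, Gabrq and Gabrr2 had log2 fold changes of 0.79, 0.34 and 0.45, with adjusted p of 0.253, 0.596 and 0.126.

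Gabra6, a subunit of cerebellar granule cells, tested the tissue label. It was at or below 3.55 CPM in 19 of the 21 libraries, at 15 CPM in PBS female 73 and at 90.1 CPM in HsTX1[R14A] male 74. The 8 cerebellar granule cell markers, Gabra6 among them, summed to 123 to 260 CPM in those 19 libraries, 280 CPM in female 73 and 807 CPM in male 74. In the 19 libraries Cbln3 and Fat2, both restricted to granule cells, had medians of 0.352 and 0.214 CPM. The remaining markers were higher there, with medians of 11.9 CPM for Cbln1, 10.5 for Neurod1, 62.5 for Zic1, 68 for Etv1 and 25.7 for Grm4. In female 73, Cbln1, Neurod1, Etv1 and Grm4 lay within the range of the 19 libraries. By Gabra6, Cbln3 and Fat2 alone, the libraries labelled as brain held little granule cell RNA apart from male 74 and, to a lesser degree, female 73. The log2 fold change of Gabra6 was 3.80 with a standard error of 1.90 (adjusted p = 0.12), and the remaining 8 treated mice ran from 0 to 3.37 CPM.

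Without male 74 the log2 fold changes in edgeR were -0.40 for Gabra4, 0.46 for Gabrb1, 0.42 for Gabrb2 and -0.03 for Gabrd, and the first 3 stayed called (adjusted p = 0.0277, 0.0333 and 0.0284). Without female 73 they were -0.39, 0.45, 0.42 and -0.01, with the same 3 called (adjusted p = 0.0248, 0.0316 and 0.0252).

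Of 73 measured genes in 8 lists of GABA signaling outside the set, 17 were called higher and 8 lower, beside 15.5% higher and 16.1% lower over all genes tested, so the count called either way is near that background. Their median log2 fold change was 0.15 beside -0.01 over all genes tested. The inhibitory postsynapse list had 5 of 11 higher and 1 lower, with a median of 0.37. It included Slitrk3, a synaptic adhesion protein (log2 fold change 0.37, adjusted p = 0.0183), and Dag1, which encodes dystroglycan (0.63, adjusted p = 0.0188). Genes of receptor assembly and trafficking had 4 of 17 higher and 1 lower (median 0.14), with Nsf, the membrane fusion ATPase (0.48, adjusted p = 0.0163), and Arfgef2, a guanine exchange factor of vesicle traffic (0.58, adjusted p = 0.0233), in front.

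Of 9 genes of GABA synthesis, release and uptake (median 0.29), 2 were higher, among them Slc32a1, the vesicular GABA transporter (0.56, adjusted p = 0.0422). Of 6 GABA-B receptor genes 3 were higher (median 0.18), among them Gabbr2 (0.66, adjusted p = 0.0347) and Kctd16, an auxiliary subunit (0.52, adjusted p = 0.0227). In the chloride transport list 3 of 11 were higher and 2 lower (median 0.15). Slc12a5, the neuronal chloride exporter KCC2, rose from 205 ± 89.8 to 359 ± 112 CPM (SD, n = 12 and 9; log2 fold change 0.87, edgeR adjusted p = 0.018).

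Of 6 ligands and enzymes of the benzodiazepine and neurosteroid sites, 3 were lower, 0 were higher and 3 did not pass (median -0.38). Dbi, the diazepam binding inhibitor, fell by 0.66 on the log2 scale (adjusted p = 0.0174), and Hsd17b10 had -0.45 (adjusted p = 0.0326). Of 4 glycine receptor genes 1 was lower, Glrb, which encodes the beta subunit (-0.26, adjusted p = 0.0285) and is named after its value was seen. Glra1 and Glra3 had log2 fold changes of 1.09 and 0.22 (adjusted p = 0.0503 and 0.46). With the length slope as a covariate the list medians lay between -0.15 and 0.15, and no gene in any list was called.

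**Figure D4:**
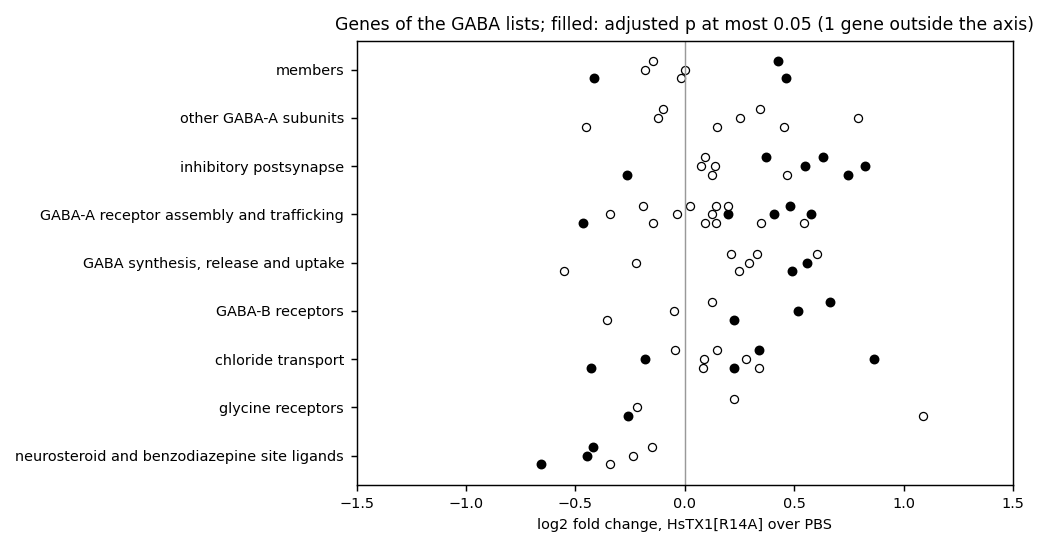
Log2 fold change between HsTX1[R14A] and PBS mice (horizontal axis, positive where higher with the peptide) for the measured genes of the members and of 8 lists of GABA signaling, 1 point per gene, filled where the adjusted p was at most 0.05. Filled points lie on both sides among the members, mostly to the right in the inhibitory postsynapse list (5 of 6) and to the left in the ligand list (3 of 3); Gabra6, at 3.80, is outside the axis.

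Some markers of brain cell types were called as well, beside 15.5% higher and 16.1% lower over all genes. Of 10 neuronal markers 4 were higher and 0 lower, and their summed level ran from 6675 to 9505 CPM in PBS mice and from 7868 to 10869 CPM in treated mice. Of 8 oligodendrocyte markers 4 were lower (4396 to 6728 CPM and 3315 to 4907 CPM), of 8 astrocyte markers 4 were lower (3331 to 4986 CPM and 3339 to 5038 CPM), and of 10 microglial markers 3 were lower (432 to 621 CPM and 367 to 544 CPM). None of the 6 markers of excitatory forebrain neurons was called, and of 10 interneuron markers 3 were higher and 1 lower. Of 8 markers each, 2 endothelial, 2 cerebellar granule cell and 1 hippocampal marker were higher, and none was called for the choroid plexus, striatum or thalamus, nor among 7 hypothalamic markers and 5 erythrocyte genes. The part of these changes in the member results was not tested. In bulk tissue, fewer cells of a type and less RNA per cell cannot be told apart.

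The second comparison, female against male mice with treatment in the model, called 0.0552% of genes (9 of 16303) and none of the 7 members. Gabrb1 alone had an unadjusted p under 0.05, with a log2 difference of 0.31 toward females (SE 0.13, adjusted p = 0.446). The X-linked Gabra3 had a log2 difference of -0.09 (adjusted p = 0.5). Gabrb1 was at 169 ± 42.4 CPM in PBS females and 141 ± 30.8 CPM in PBS males (SD, n = 6 each), a difference smaller than the spread between mice.

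The response to treatment did not differ detectably between the sexes. The treatment by sex interaction called 0 genes (0% of 16303, with 270 genes at an unadjusted p under 0.05, and 250 with limma/voom, which also called 0). The largest interaction among the members was that of Gabrd, at a log2 difference of -0.42 (SE 0.24, edgeR p = 0.0972, adjusted p = 1). Gabrd was at 43.1, 28.9 and 56.2 CPM in the 3 treated females (72, 71 and 98) and at 47.9 to 67.4 CPM in the 6 treated males. The PBS females ran from 41 to 69.2 CPM and the PBS males from 43.4 to 63.4 CPM. Fitted in females and males apart, Gabra4 had log2 fold changes of -0.51 and -0.35, Gabrb1 0.53 and 0.42, and Gabrb2 0.39 and 0.46, and none passed the adjustment within a sex, where no gene was called (edgeR, lowest adjusted p over all genes 0.244 and 0.138).

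The members varied to different degrees among PBS mice. With the sex means removed, the SD of log2 CPM was 0.13 for Gabra3, smaller than in all but 14% of the 10462 genes whose log2 CPM averaged 3 or more. It was 0.38 for Gabrb1, which exceeded 76.6% of those genes, whose median was 0.24. The remaining members lay between, at 0.21 for Gabra2, 0.23 for Gabra4, 0.24 for Gabrd, 0.30 for Gabra5 and 0.31 for Gabrb2.

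Each member's pattern over the 21 mice, with the means of the treatment and sex groups removed, was set beside that of 10455 other genes. Gabrb1 was most like Capn5, Adnp and Rgmb, with Pearson's r of 0.958, 0.950 and 0.940, and Gabra4 was most like Chm, Gm14295 and Dynlt3 (0.948, 0.945 and 0.942). Gabrb2 was most like Fam135b, Fzd3 and Taf1 (0.921, 0.918 and 0.917), and Gabrd was most like Ngef, Rnf144b and Syt12 (0.883, 0.863 and 0.861). The closest genes were less similar for Gabra3 (Ncam2, Prkacb and Negr1, at 0.823, 0.821 and 0.820), Gabra5 (Cdk14, Ogfrl1 and Rnf182, at 0.793, 0.791 and 0.778) and Gabra2 (Casc4 and Zfp772, at 0.761 and 0.745). These are the highest of many correlations over points that share a library, and they are given as a description.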

How the data were processed

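Total RNA from mouse brains, described by the study as whole, was sequenced. The authors mapped reads to GRCm38 using STAR, with gene counts from Salmon. The deposited table holds estimated counts for 16318 genes, not normalized (90.5% within 0.01 of a whole number), and these were rounded here. The authors' fold change and p-value columns, and 53 further per-sample columns (37 of CPM, 16 counts of other libraries), were not used. The labels and the study's methods name different library kits, of which the one in the methods is directional. The strand setting of the counting is not given in the sources used here.

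After filterByExpr, 16303 genes were tested in edgeR 4.0.16 (R 4.3.3; TMM, glmQLFit, glmQLFTest) with sex and treatment, Benjamini-Hochberg adjustment over all genes and a threshold of 0.05. Alternatives used limma 3.58.1 with voom, DESeq2 1.42.0 and sva 3.50.0, other filters and scalings, covariates, subsets, and each mouse left out. Log2 CPM carries a prior count of 2. Transcript lengths came from GENCODE for GRCm38 (99.5% of genes). On simulated counts for the treatment comparison, edgeR recovered 191 of 200 genes changed 2-fold among 16303, with 8 false calls. These figures hold for that setting only. Recovery of changes as small as those of Gabra4, Gabrb1 and Gabrb2 (log2 fold changes of -0.42, 0.46 and 0.43) was not tested. False calls with as many genes changed as the 5144 called here were not tested either.

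Members and gene lists were chosen with earlier results of these data known. Named genes were all members, every measured other subunit, for each GABA list the 2 genes with the smallest p in the direction of the list's median, and for each member the 3 most correlated genes. Some of these genes, and the shares of subunits within a class, are not reported here. Nothing states whether mice were littermates, so p-values measure the spread between these mice. Depth of 14917174 to 47613792 counts gave 14228 genes 10 or more counts in each library. The members had at least 578 counts in each.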

Additional observations from a re-analysis of the deposited data

Results flagged for a closer look

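Each member and Gabra6 was looked at in the 9 HsTX1[R14A] mice and in the 3 treatment and sex groups of 6 mice, 32 sets in all, for a mouse far from the others by Dixon's criterion, which chance meets in about 1 of 20 sets. Gabrb2 was at 86.3 CPM in HsTX1[R14A] male 93, below the remaining treated mice, both among the 9 treated mice and among the 6 treated males. This library also had the lowest length slope of the treated group, -0.141, and without it Gabrb2 stayed called. Gabra5 was at 71.2 CPM in HsTX1[R14A] male 92, above the other treated males. Gabra6 was at 90.1 CPM in HsTX1[R14A] male 74, far from the rest both among all treated mice and among treated males, and at 15 CPM in PBS female 73.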

How the results depend on the processing

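Gabra4, Gabrb1 and Gabrb2 kept their directions in all 36 alternatives for treatment and stayed called in 31 of them, and no other member was called in any. With 1 surrogate variable Gabrb1 moved from 0.46 to 0.27. The member count of 3 became 0 with the length slope as a covariate, in either name form alone, in females alone and in males alone, and in these 5 fits 0 of all genes were called. Against 5144 genes called, there were 2984 without the sex term, 1999 with name form as a covariate, 2110 with 1 surrogate variable and 2686 with the length and GC trend removed, where 1638 were higher and 1048 lower. Leaving out 1 mouse gave 2289 (without PBS male 90) to 6614 (without HsTX1[R14A] male 93) genes and 3 members each time. Without HsTX1[R14A] mice 98, 71, 88 and 81 the counts were 3005, 3332, 3121 and 3263. The cause was not tested.

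Log2 fold changes near 0 changed sign. Gabra3 was at 0.04 with 1 surrogate variable, 0.106 with the trend removed, 0.053 with the length slope and 0.034 in males, and leaving out 1 mouse gave -0.05 to 0.014. Gabra5 was at 0.048 in the SAMP form. Gabrd was at 0.003 with DESeq2 and with RLE scaling, 0.045 without the sex term, 0.032 with quality weights and 0.167 in males, and leaving out 1 mouse gave -0.057 to 0.086. The sex difference of Gabrb2 was -0.052 with the length slope. The counts for sex and interaction stayed within 1.5 times. With the median in place of the longest transcript length, Gabra2 stood first in PBS mice at 89.8 TPM and Gabra5 moved from 46.6 to 26.3 TPM. The paper states that mice were randomized to peptide or PBS within each cage, but the sample labels do not give the cage. No paired analysis was possible, because the groups also share no replicate numbers. Counts were thin for Gabre, Gabrr2 and Gabra6, at median levels of 1.22, 0.278 and 0.127 CPM in PBS mice.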
